A study of Mus musculus with 6 samples.

Results

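The genes described here are 40 regulators of splicing and other RNA-binding proteins, taken by symbol from the 35857 gene rows of the deposited tables. They are the CELF, MBNL, RBFOX, PTB, NOVA, ELAVL and Musashi families, 6 hnRNP genes, 7 SR genes, and Sfpq, Srrm4, Tia1 and Tial1. The proteins of the STAR family, to which quaking belongs, are not among them. All 40 symbols were found, and 39 had a mean of at least 1 TPM (a level scaled to gene length and to the library total) and were tested among 14994 genes. Mbnl3 was below that level.

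Polyadenylated RNA was taken from cerebral cortex at postnatal day 7, in mice of the C57BL/6 strain. There were 3 libraries from control brains, with the genotype label wild type, and 3 from brains with the label Qk-/-, each from a separate brain. No other allele or treatment is named for either group. The sources used here do not give the deleted exons, the cells in which the deletion took place or the sex of the animals. By its title, the series concerns quaking in the passage of neural stem cells from neurogenesis to gliogenesis.

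The members act on RNA by binding short sequence motifs in precursor and mature transcripts. RBFOX, NOVA, neuronal CELF and neuronal ELAVL proteins and Ptbp2 and Srrm4 shape the exon choices of neurons, while Ptbp1 holds many neuronal exons out in progenitors and glia. MBNL proteins drive the switch from fetal to adult exons, and Musashi proteins repress or stabilize transcripts in neural stem cells and glia. The hnRNP and SR proteins are general factors of every cell that often act against and with each other at the same exons. Many of these proteins control their own transcripts through exons that lead to decay. The deposited levels sum all transcripts of a gene, so exon use was not measured.

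Qk, the targeted gene, was at 36.5, 43.2 and 41.3 TPM in the control libraries (replicates 1, 2 and 3, the order used throughout) against 14.6, 15.2 and 15.4 TPM in the knockout libraries. The groups lay far apart (log2 change −1.36, 95% interval −1.58 to −1.15, limma adjusted p = 0.000855), in the direction of the labels. TPM keeps no depth, so how many reads lie behind a value is unknown. Neuronal markers were abundant, as the labelled tissue implies, with a summed level of 8 genes of 6282 to 7082 TPM in control and 6665 to 7180.1 TPM in knockout libraries. The summed level of 8 astrocyte markers was 996 to 1071 TPM in control and 698 to 757 TPM in knockout libraries. For 7 oligodendrocyte markers it was 291 to 304 and 156 to 178 TPM, and for 6 markers of oligodendrocyte precursors 355 to 387 and 423 to 448 TPM. Within these lists the log2 changes had both signs, in the oligodendrocyte list only through Mog (0.29, at 1.02 mean TPM). Of that list Gpr17 (−1.49), Bcas1 (−1.03), Mbp (−0.85) and Cnp (−0.76) passed the test. Olig2 (log2 change 0.65) passed the test and Olig1 had 0.42, while Pdgfra, Cspg4 and C1ql1 of the precursor list had −0.30, −0.14 and −0.73. Of the astrocyte list, Slc1a3 (−1.23), Mlc1 (−1.11) and Gja1 (−0.47) passed, and Aldh1l1 had 0.47 and Aqp4 −0.079. The astrocyte, oligodendrocyte and precursor sums did not overlap between groups, and 14.2% of all tested genes, taken singly, did not overlap either. No marker of these 3 lists was listed at 0 in any library, and the part of these cells in the levels of the regulators was not tested. In such tissue RNA, fewer cells of a type and less RNA per cell cannot be told apart.

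None of the 39 tested regulators passed an adjusted p of 0.05 (limma on log2(TPM + 1), Benjamini-Hochberg over all 14994 genes), against 0.387% of all tested genes (0.1% higher and 0.287% lower in the knockout). With so small a background share, a count of 0 among 39 genes does not set the list apart. At an unadjusted p under 0.05 there was 1 regulator, Celf1, which is 2.56% of the 39 against 8.72% of all tested genes (3.42% higher, 5.30% lower). Celf1 was lower in the knockout. The groups did not overlap for 2 of the 39, Ptbp1 (higher in the knockout) and Msi1 (lower), which is 5.13% against 14.2% of all tested genes (5.20% higher, 8.98% lower). The median log2 change was 0.038 over the regulators and −0.026 over all tested genes, and 22 of the 39 changes were positive. The smallest and the largest were −0.29 (Celf1) and 0.25 (Msi2). The 95% interval of the log2 change lay within −1 and 1 for all 39 regulators, and within −0.5 and 0.5 for 34 of them (87.2%), against 79.9% of the 10931 tested genes in the same range of mean TPM. The 5 whose interval reached past 0.5 in size were Celf1, Mbnl1, Ptbp3, Nova1 and Msi2. No member passed in any of the 14 other settings of the fit. In GRCm38 these genes lie at chr2:90940382-91019497 (Celf1, plus strand), chr10:79854427-79864771 (Ptbp1, plus), chr5:115429599-115455698 (Msi1, plus) and chr11:88339382-88718513 (Msi2, minus).

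**Figure D1:**
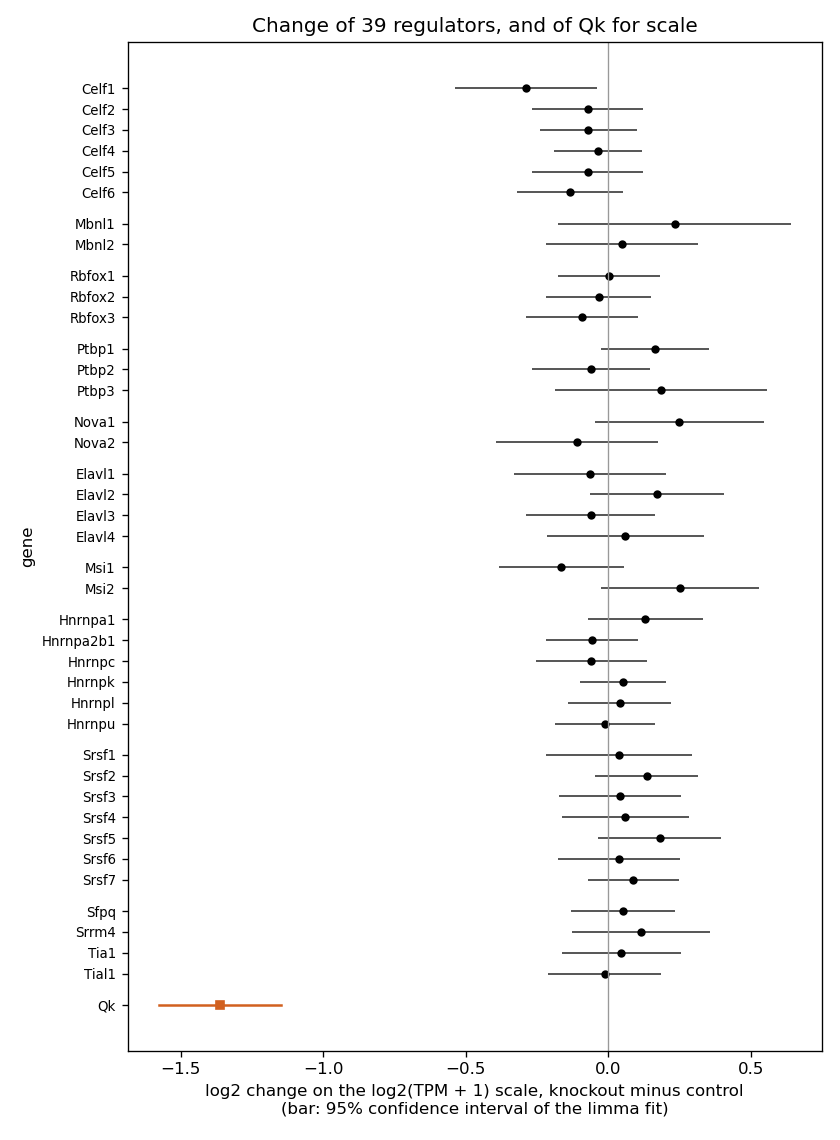
Log2 change of each of the 39 tested regulators, knockout minus control on the log2(TPM + 1) scale (horizontal axis), with the 95% confidence interval of the limma fit as a bar; Qk is added for scale. The points of the regulators lie between −0.29 and 0.25, and the point of Qk at −1.36.

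**Figure D2:**
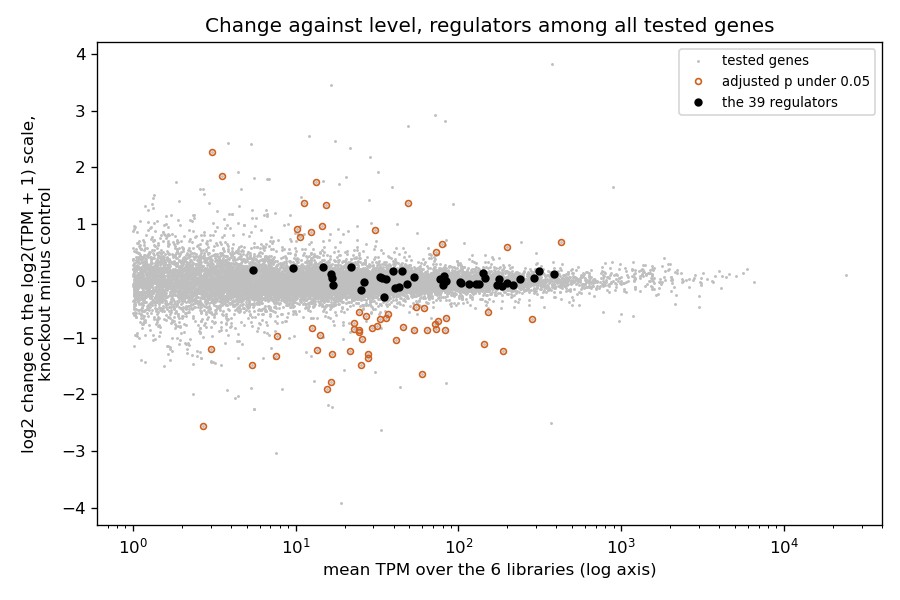
Log2 change (vertical axis, log2(TPM + 1) scale, knockout minus control) against mean TPM over the 6 libraries (log axis) for the 14994 tested genes, with the 58 genes past an adjusted p of 0.05 circled and the 39 regulators in black. The regulators sit in the band of small changes from 5.48 to 388 mean TPM.

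By level the regulators spanned from 388 TPM (Hnrnpa1, mean of 6 libraries) to 5.48 TPM (Ptbp3), with Mbnl3 near 0. TPM is scaled to length, so these levels can be set beside each other roughly. How the counting treated pseudogenes and strand is not stated. The order began with Hnrnpa1, Srsf5 (311 TPM), Hnrnpk (291 TPM), Hnrnpl (239 TPM) and Celf3 (218 TPM). Neighbours in this order overlapped in their range over the 6 libraries except at 6 steps: below Hnrnpk, Celf5, Hnrnpu, Srsf6, Mbnl1 and Ptbp3. Within the stretch from Srsf4 down to Mbnl1 each gene therefore overlapped the next. The summed level of all 40 was 3869.8 to 3926 TPM in control and 3866 to 4047 TPM in knockout libraries, which is 0.387% to 0.405% of all TPM. The median coefficient of variation over the 6 libraries was 7.83% for the regulators and 10.0% for tested genes in their range of mean TPM.

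**Figure D3:**
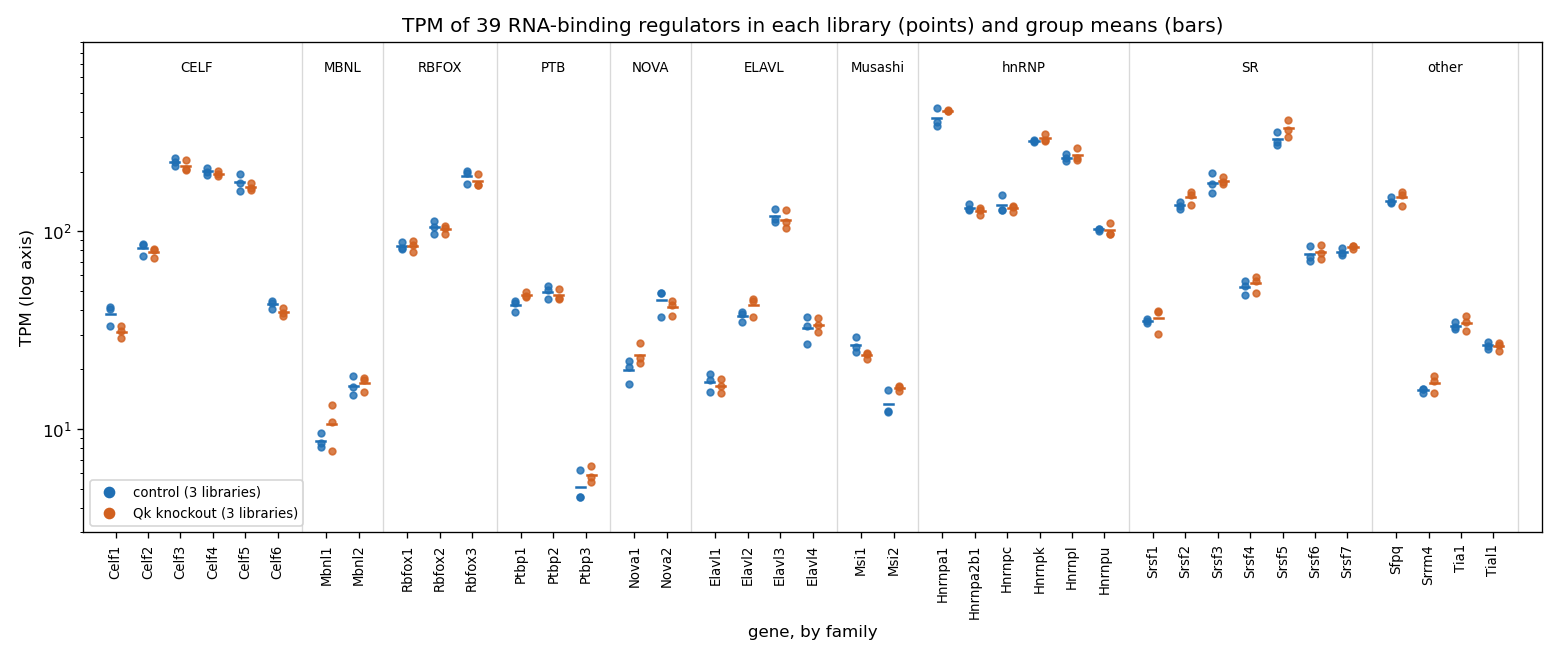
TPM (log axis) of the 39 tested regulators by family in each of 3 control and 3 knockout libraries (points), with group means as short bars. Hnrnpa1 is highest and Ptbp3 lowest, and within each gene the control and knockout points sit close together.

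Of 10 ratios between related genes, that of the Musashi genes had the largest difference between the groups. Musashi proteins bind short UAG-containing motifs, and Msi1 in particular is known from neural stem cells and astrocytes. Msi1 was at 25.9, 24.6 and 29.2 TPM in control and 23.9, 24.3 and 22.5 TPM in knockout libraries. Every knockout library was thus below every control library (log2 change −0.16, 95% interval −0.38 to 0.053, limma adjusted p = 0.695). Msi2 was at 12.3, 12.2 and 15.8 TPM in control and 15.5, 16.4 and 16.4 TPM in knockout libraries, where control replicate 3 lay just above knockout replicate 1 and the other controls lay lower (log2 change 0.25, −0.020 to 0.53, limma adjusted p = 0.608). Msi2 made up 32.2, 33.2 and 35.0% of the summed Musashi TPM in control replicates 1, 2 and 3. In knockout replicates 1, 2 and 3 its share was 39.4, 40.3 and 42.1%. The log2 ratio of Msi2 to Msi1 was −0.94 ± 0.0825 in control and −0.52 ± 0.0811 in knockout libraries (SD, n = 3; log2 of TPM + 1; two-sided exact permutation p = 0.1, adjusted over 10 ratios 0.5). With 3 against 3 libraries, 0.1 is the smallest p this test can give, so no ratio could pass by this test. When a library was left out, the difference was 0.37 to 0.46. Neither gene passed the test on its own. The summed level of 6 markers of radial glia and neural stem cells was 1128 to 1351 TPM in control and 1319 to 1472 TPM in knockout libraries, with Fabp7 (973 mean TPM) making up most of it. In that list Vim (log2 change 0.60, limma adjusted p = 0.0193) and Hopx (−0.79, adjusted p = 0.0152) passed the test in opposite directions, and Hes5 had −0.81 (adjusted p = 0.0591). The part of these markers in the Musashi and PTB values was not tested.

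Quaking is known to bind ACUAA followed by C or U, and both Musashi transcripts hold that word in the longest annotated 3' UTR. The C form, written as DNA ACTAAC, occurs in 1 place in the 1895 bases of Msi1 and in 3 places in the 5310 bases of Msi2. Of tested genes with a 3' UTR of like length, 22.7% (2310 genes) hold it for Msi1 and 52.9% (717 genes) for Msi2. The sites are shown because the Msi2 to Msi1 ratio differed most among the ratios and the word is that of quaking. Quaking protein was not measured, and the part of the word in the ratio was not tested. They were read from GENCODE M21 transcripts of GRCm38, with the word in capitals and 12 bases on either side.
Msi1 site (chr5:115453966-115453995, plus strand): tctggctcccctACTAACctcctgttcaga
Msi2 site A (chr11:88342654-88342683, minus strand): tttataaattttACTAACaagtagactaat
Msi2 site B (chr11:88341855-88341884, minus strand): gatgtggtttcaACTAACccaaggtctcac
Msi2 site C (chr11:88340519-88340548, minus strand): tacaaaagaaacACTAACtcatccttctct
Site A of Msi2 is followed in the same window by the U form, written actaat, and the U form occurs at that place only in the Msi2 3' UTR. A match of letters is not a measured binding site, and binding was not measured here.

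None of the 3 PTB genes passed the test, and Ptbp1 was the one without overlap between the groups. Ptbp1, the polypyrimidine tract protein of progenitors, glia and other non-neuronal cells, was at 44.5, 39.04 and 43.4 TPM in control and 49.2, 46.8 and 46.5 TPM in knockout libraries. All 3 knockout values lay above all 3 control values, by a small margin (log2 change 0.17, 95% interval −0.020 to 0.35, limma adjusted p = 0.621). Ptbp2, its neuronal relative, was at 45.5, 52.9 and 50.2 TPM in control and 46.0, 45.2 and 51.2 TPM in knockout libraries, with broad overlap (log2 change −0.060, −0.26 to 0.14). Ptbp1 and Ptbp2 stood at nearly the same level in this tissue, 44.9 and 48.5 mean TPM over 6 libraries, and their ranges overlapped. The log2 ratio of Ptbp2 to Ptbp1 was 0.032, 0.43 and 0.21 in control and −0.10, −0.050 and 0.14 in knockout replicates 1, 2 and 3 (two-sided exact permutation p = 0.2). Knockout replicate 3 lay inside the control range and the other knockout libraries below it. Ptbp3 was the least abundant regulator tested, at 6.21, 4.51 and 4.53 TPM in control and 6.54, 5.39 and 5.70 TPM in knockout libraries (log2 change 0.19, −0.18 to 0.55).

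**Figure D4:**
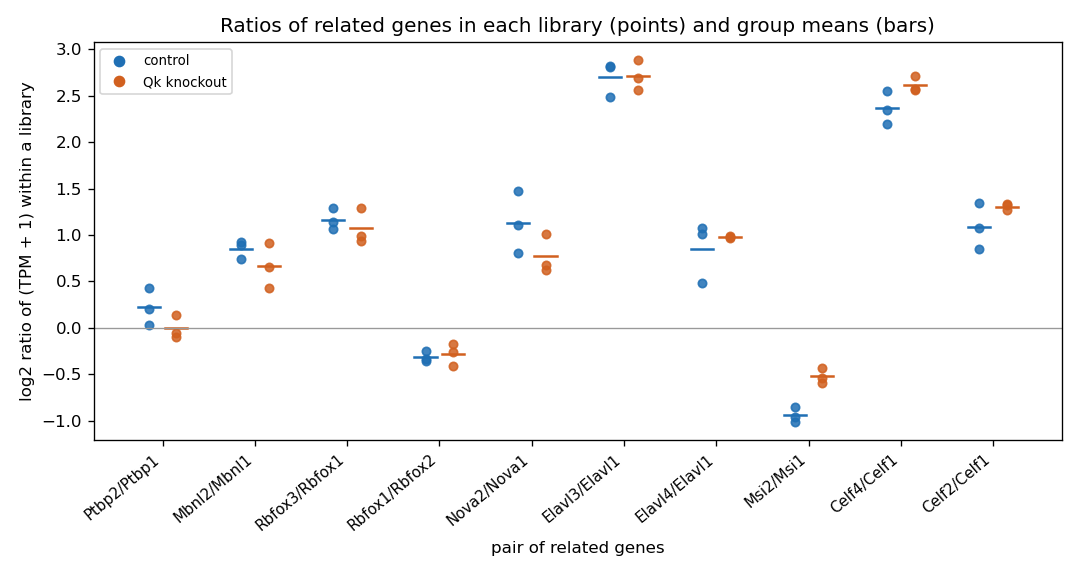
Log2 ratio of (TPM + 1) for 10 pairs of related genes within each library (points) with group means (bars), 3 control and 3 knockout libraries. Only Msi2/Msi1 and Celf4/Celf1 have no overlap between the groups among these 10 pairs (two-sided exact permutation p = 0.1 for each). Of all tested genes, taken singly, 14.2% have no overlap. Celf2/Celf1 and Elavl4/Elavl1 spread widely in the control libraries and little in the knockout libraries.

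All 6 CELF genes had a slightly lower mean in the knockout, and none passed the test. CELF proteins bind GU-rich sequence; Celf1 and Celf2 are widely expressed, and Celf3, Celf4, Celf5 and Celf6 are neuronal. Celf1, which also takes part in transcript decay, was at 41.3, 33.0 and 40.5 TPM in control and 31.2, 28.7 and 33.3 TPM in knockout libraries. Control replicate 2 lay among the knockout values, and the other control libraries lay above them. Its log2 change was −0.29 (SE 0.108, 95% interval −0.53 to −0.043, limma adjusted p = 0.485), the smallest p among the members, and its adjusted p ranged from 0.325 to 0.755 over the 14 other settings. Its 3' UTR of 6132 bases holds neither ACTAAC nor ACTAAT, words that 57.9% and 61.9% of 504 tested genes of like length hold. Celf3 (218 TPM), Celf4 (198 TPM) and Celf5 (172 TPM) were the main members by level, with 28.4% to 30.9%, 26.0% to 27.9% and 22.0% to 24.1% of the summed CELF TPM in a library. Their log2 changes were −0.069 (−0.24 to 0.10), −0.036 (−0.19 to 0.12) and −0.072 (−0.26 to 0.12). Celf2 was at 82.4 ± 6.35 and 78.2 ± 4.47 TPM and Celf6 at 42.8 ± 1.92 and 38.9 ± 1.94 TPM in control and knockout (SD, n = 3). The log2 ratio of Celf4 to Celf1 was 2.19, 2.56 and 2.34 in control and 2.57, 2.71 and 2.57 in knockout replicates 1, 2 and 3, with no overlap (two-sided exact permutation p = 0.1, adjusted 0.5). Its difference, 0.25, was 0.17 to 0.35 when a library was left out, the smallest without control replicate 1. The summed CELF level was 726 to 808 TPM in control and 707 to 739.5 TPM in knockout libraries, which overlap. Without control replicate 3 the log2 change of Celf5 was 0.00025 and the other 5 stayed negative.

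RBFOX genes were abundant, and their intervals allow only small changes. These proteins bind GCAUG and are among the best-known regulators of neuronal exons. Rbfox3, whose protein is the neuronal nuclear marker NeuN, was at 174, 200.5 and 196 TPM in control and 171, 194 and 171 TPM in knockout libraries, and the groups overlapped. Rbfox2, the member also used outside neurons, was at 105, 97.0 and 112 TPM in control and 96.5, 104 and 106 TPM in knockout libraries, and Rbfox1 at 82.3, 81.6 and 88.3 TPM in control and 85.6, 78.5 and 88.9 TPM in knockout libraries. The order Rbfox3, Rbfox2, Rbfox1 held in all 6 libraries, and the ranges of the members over the libraries did not overlap. Their log2 changes were −0.091 (95% interval −0.28 to 0.10), −0.033 (−0.21 to 0.15) and 0.0035 (−0.17 to 0.18), each with a limma adjusted p of at least 0.823. On the fold scale of TPM + 1 the intervals ran from 0.821 to 1.13 times control over the 3 genes.

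The log2 changes of the NOVA genes had opposite signs, and neither passed the test. NOVA proteins bind YCAY words and act on exons of synaptic genes. Nova1 was at 16.9, 20.7 and 22.1 TPM in control and 22.8, 21.5 and 27.1 TPM in knockout libraries, with knockout replicate 2 inside the control range (log2 change 0.25, 95% interval −0.041 to 0.54, limma adjusted p = 0.642). Nova2, the main NOVA gene of the cortex, was at 48.7, 36.8 and 48.8 TPM in control and 37.1, 44.3 and 42.2 TPM in knockout libraries, where control replicate 2 was the lowest of all 6 (log2 change −0.11, −0.39 to 0.17). When a library was left out, the change of Nova1 was 0.14 (without control replicate 1) to 0.33 (without control replicate 3). That of Nova2 was −0.24 (without control replicate 2) to −0.037 (without knockout replicate 1). Nova2 was the higher in each of the 6 libraries, with 60.9% to 74.2% of the summed NOVA TPM. The log2 ratio of Nova2 to Nova1 was 1.47, 0.80 and 1.11 in control and 0.68, 1.01 and 0.62 in knockout replicates 1, 2 and 3, which overlap (two-sided exact permutation p = 0.2).

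ELAVL genes, which encode the Hu proteins of AU- and U-rich sequence, were led by Elavl3. Elavl3, a neuronal member, was at 111, 115 and 129.9 TPM in control and 103, 128 and 111 TPM in knockout libraries and took 52.9% to 59.5% of the summed ELAVL TPM. Elavl2, also neuronal, was at 38.3, 39.05 and 34.8 TPM in control and 45.5, 36.9 and 44.5 TPM in knockout libraries. Of the knockout libraries only replicate 2 lay within the control range of Elavl2 (log2 change 0.17, 95% interval −0.061 to 0.40, limma adjusted p = 0.705). Elavl4, the neuronal HuD gene, was at 27.0, 33.3 and 36.7 TPM in control and 31.1, 33.4 and 36.2 TPM in knockout libraries, with control replicate 1 the lowest. Elavl1, the HuR gene present in all cells, was the lowest of the family at 19.0, 15.3 and 17.7 TPM in control and 15.2, 16.5 and 18.0 TPM in knockout libraries. The log2 changes of Elavl3, Elavl4 and Elavl1 were −0.061, 0.061 and −0.064, and their intervals lay between −0.33 and 0.33.

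MBNL genes were low in this young cortex. MBNL proteins are known for their rise after birth and for their loss of function in myotonic dystrophy. Mbnl2, the main MBNL of the brain, was at 14.8, 16.2 and 18.5 TPM in control and 17.8, 15.4 and 18.1 TPM in knockout libraries, and Mbnl1 at 8.51, 8.07 and 9.51 TPM in control and 10.9, 7.74 and 13.2 TPM in knockout libraries. The knockout libraries spread more for Mbnl1, with replicate 2 below all controls and the other libraries above them (log2 change 0.23, 95% interval −0.17 to 0.64, limma adjusted p = 0.770). This was the widest interval among the members, and without knockout replicate 2 the log2 change was 0.43 (limma adjusted p = 0.423) and without knockout replicate 3 it was 0.076 (limma adjusted p = 0.947). Mbnl3 was listed between 0 and 0.18 TPM. Srrm4, which promotes microexons in neurons, was at a like level, 16.0, 15.1 and 15.9 TPM in control and 17.5, 18.5 and 15.3 TPM in knockout libraries. Knockout replicate 3 lay inside the control range (log2 change 0.12, −0.12 to 0.35).

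Taking the neuron-enriched members as a group (Celf3 to Celf6, Rbfox1, Rbfox3, Ptbp2, Nova1, Nova2, Elavl2 to Elavl4 and Srrm4), the log2 change was negative in 8 of the 13 and positive in 5. Their median was −0.060, and none passed the threshold. Their summed level was 1169 to 1304 TPM in control and 1155 to 1237 TPM in knockout libraries. The 3 members of progenitors and glia (Ptbp1, Msi1 and Msi2) summed to 75.9 to 88.4 and 85.5 to 88.6 TPM. Both sums overlapped between the groups.

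The hnRNP genes were the most abundant family by summed TPM, and none of the 6 passed the test. Hnrnpa1, which favours exon skipping and is the most abundant of all 40, was at 421, 356 and 339 TPM in control and 407, 404 and 404 TPM in knockout libraries. The control libraries spread from 339 to 421 TPM while the knockout libraries lay within a few TPM of each other, inside that range. Hnrnpk, which binds C-rich sequence, was at 282, 286 and 288 TPM in control and 286, 290.2 and 311 TPM in knockout libraries. Hnrnpl, which binds CA repeats, was at 235, 225 and 246 TPM in control and 234, 265 and 229 TPM in knockout libraries. For Hnrnpc, which binds U-rich sequence of introns, the values were 152, 129 and 128 TPM in control and 125, 132 and 134 TPM in knockout libraries, with control replicate 1 apart from the rest. Hnrnpa2b1, a factor of splicing and RNA transport, was at 132 ± 4.58 and 126 ± 5.66 TPM and Hnrnpu, a nuclear matrix protein, at 102 ± 1.18 and 101 ± 7.75 TPM in control and knockout (SD, n = 3). The 6 log2 changes lay between −0.059 (Hnrnpc) and 0.13 (Hnrnpa1), 3 on each side of 0, and every 95% interval lay within −0.5 and 0.5. The log2 change of Hnrnpu was −0.012, and it was positive under median-of-ratios scaling and quantile normalization. Hnrnpa1 has many processed pseudogenes, and how the authors' counting shared reads with them is not stated. Hnrnpu shares 804 bases (6.93% of its exonic length) with Cox20 on the opposite strand (49.1 mean TPM), and whether strand was used in counting is not stated.

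All 7 SR genes had a slightly higher mean log2 level in the knockout, and none passed the test. SR proteins bind exonic enhancers and recruit the spliceosome. Srsf5 was the most abundant, at 282, 319 and 274 TPM in control and 301, 367 and 325 TPM in knockout libraries, with only knockout replicate 1 inside the control range (log2 change 0.18, 95% interval −0.032 to 0.39, limma adjusted p = 0.646). Srsf2, an SR protein that stays in the nucleus, was at 140.4, 130.1 and 134 TPM in control and 152, 158 and 136 TPM in knockout libraries (log2 change 0.14, −0.041 to 0.31). Srsf2 shares 460 bases (15.6% of its exonic length) with Mettl23 on the opposite strand. Srsf3, the smallest SR protein, was at 196, 173 and 155 TPM in control and 177, 172 and 189 TPM in knockout libraries, with both the highest and the lowest value in a control library. Srsf7, a close relative of Srsf3, was at 76.1, 77.8 and 81.8 TPM in control and 84.6, 84.4 and 81.6 TPM in knockout libraries. Srsf6 was at 76.5 ± 7.03 and 78.5 ± 6.33 TPM, Srsf4 at 52.3 ± 4.18 and 54.6 ± 5.08 TPM and Srsf1, an early-described splicing factor, at 35.1 ± 0.892 and 36.3 ± 5.22 TPM in control and knockout (SD, n = 3). The changes of the 7 ran from 0.037 (Srsf1) to 0.18 (Srsf5), with a median of 0.060, against −0.026 for all tested genes. The summed SR level was 853, 868 and 810.4 TPM in control and 875, 948 and 912 TPM in knockout replicates 1, 2 and 3, without overlap. Of all tested genes, taken singly, 14.2% did not overlap between groups, and each of the 7 SR genes overlapped on its own. Both other scalings raised the median log2 change of all tested genes, by 0.027 (median-of-ratios) and 0.024 (quantile). That all 7 stayed positive under them is therefore little of a check. When a library was left out, 5 to 7 stayed positive, the fewest without knockout replicate 3.

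**Figure D5:**
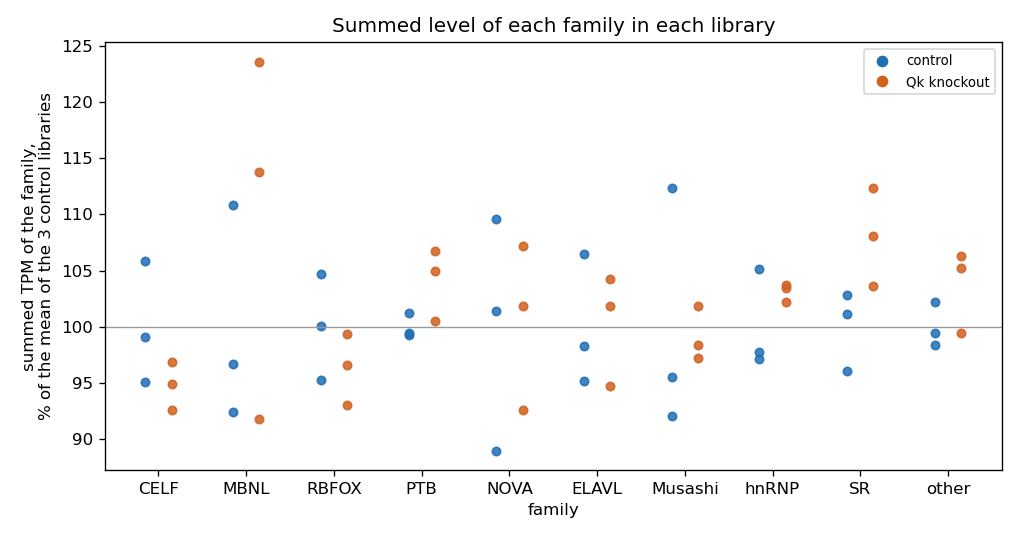
Summed TPM of each family in each library, as a percentage of the mean of the 3 control libraries (vertical axis), for 3 control and 3 knockout libraries. The SR family is the only one of the 10 whose groups do not overlap, and 14.2% of all tested genes, taken singly, do not overlap either. The MBNL family, of low level, spreads most.

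Srsf3 and Srsf5 hold the ACTAAC word once each in the longest 3' UTR. That of Srsf3 is 1962 bases long, and 24.0% of 2318 tested genes of like length hold the word. That of Srsf5 is 529 bases long, and 5.74% of 1446 tested genes of like length hold the word. With 1.89 matches per kilobase, from 1 match in a short 3' UTR, Srsf5 had the highest density of the word among the 40 members. The sites are shown because these are the SR genes with the word.
Srsf3 site (chr17:29042436-29042465, plus strand): tggctgttagtgACTAACattttaaagtaa
Srsf5 site (chr12:80950318-80950347, plus strand): tagtttaattaaACTAACgaatagttttgg
Over the 39 tested members, 11 (28.2%) hold ACTAAC in the longest 3' UTR, searched on the transcript strand with overlapping matches counted, against 19.6% of 13471 tested genes with an annotated 3' UTR. The members' 3' UTRs are longer (median 2364 against 1212 bases), and per kilobase they hold 0.118 matches against 0.149. The U form ACTAAT was found in 16 members (41.0%, against 23.3%), at 0.191 and 0.192 matches per kilobase. The median log2 change was 0.041 for the 11 members with ACTAAC and 0.037 for those without. For all tested genes it was −0.045 with the word and −0.023 without. For ACTAAT it was 0.044 in the 16 members with the word (11 positive, 5 negative) and −0.033 in those without, against −0.038 and −0.024 in all tested genes. Neither difference was tested. The RBFOX word TGCATG was found in 17 members (43.6%, against 37.2% of tested genes), at 0.300 and 0.367 matches per kilobase, with most matches, 6, in Nova1. For TGCATG the median log2 change was 0.041 in members with it (11 positive, 6 negative) and −0.0040 in those without. In all tested genes the medians were −0.034 and −0.022. This difference was not tested either.

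Sfpq, Tia1 and Tial1 complete the list. Sfpq, a nuclear protein of paraspeckles and of long neuronal transcripts, was at 140.0, 149 and 138 TPM in control and 135, 157 and 152 TPM in knockout libraries, and the groups overlapped (log2 change 0.053, 95% interval −0.13 to 0.23). Tia1 and Tial1, related proteins of stress granules that promote weak splice sites next to U-rich sequence, were at 33.2 ± 1.26 and 34.4 ± 2.97 TPM and 26.5 ± 1.14 and 26.2 ± 1.19 TPM in control and knockout (SD, n = 3). Their log2 changes were 0.046 (−0.16 to 0.25) and −0.012 (−0.21 to 0.18); that of Tial1 was positive under both other scalings.

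Around these members, wider lists of 122 other RNA-binding and splicing genes were read in the same way. Of their 117 tested genes, 0 passed an adjusted p of 0.05 (limma) in either direction, against 0.387% of all tested genes. An unadjusted p under 0.05 was found for 2 (1.71%, against 8.72%), and 13 (7 higher, 6 lower in the knockout) did not overlap between groups (11.1%, against 14.2% of all tested genes). The gene closest to the threshold was Tra2b, named after its values were seen, an SR-related activator of exons. Tra2b was at 106, 108 and 103 TPM in control and 139, 131 and 136 TPM in knockout libraries, with a clear gap between the groups (log2 change 0.35, 95% interval 0.20 to 0.50, limma adjusted p = 0.0869). Its adjusted p ran from 0.0750 to 0.310 over the 14 other settings, so it passed in none. The other was Hnrnph3, at 17.8 ± 1.44 and 13.9 ± 1.41 TPM (SD, n = 3; log2 change −0.33, limma adjusted p = 0.418). By group, none of 20 other hnRNP and PCBP genes, 14 other SR and SR-related genes, 7 SR protein kinases, 29 genes of the core spliceosome, 23 other nuclear and 24 cytoplasmic RNA-binding proteins passed. The most abundant of 5 of these groups were Pcbp1 and Pcbp2 (log2 change 0.26 and 0.090), Srrm2 and Tra2b (−0.081 and 0.35), Srpk2 and Clk3 (0.0081 and −0.072), Snrpn and Snrpd2 (−0.090 and 0.050), and Ybx1 and Ybx3 (0.15 and 0.030). Among the STAR relatives of quaking, Khdrbs1 was at 95.9 ± 7.21 and 87.7 ± 4.96 TPM, Khdrbs3 at 199 ± 10.5 and 196 ± 11.9 TPM and Sf1 at 68.4 ± 5.81 and 70.2 ± 6.24 TPM in control and knockout (SD, n = 3).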

How the data were processed

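Polyadenylated RNA of 6 cortices was sequenced on the Ion Proton, per the labels' protocols. STAR 2.4.1d, RSEM 1.3.0 and the builds mm10 and GRCm38.p4 are named in the submitters' processing notes; the sources used here do not give their roles, the annotation or the use of strand. The authors deposited 1 TPM value per gene and library, so depth is unknown and no counting interval was computed. Here, genes averaging under 1 TPM across all 6 libraries were dropped. The log2(TPM + 1) values went into limma 3.58.1 under R 4.3.3 (group as the only term, eBayes with trend, two-sided p adjusted by Benjamini-Hochberg, threshold 0.05). This scale understates changes of low genes. The test was tested on simulated data. The limma p-values set the difference between groups against the spread between brains within groups. That spread is pooled over both groups and brought towards a trend over all genes. Groups and replicate numbers came from the sample titles. All members are described; of the wider lists, the 2 most abundant genes of each group are named, except for the other nuclear RNA-binding proteins, where they are not reported here. Any gene past the threshold would have been named. The members and lists were chosen with earlier results of these data known. No pair of libraries was a duplicate (50 to 75 identical values among 14994 genes; Pearson r across genes 0.977 to 0.982). Positions, 3' UTRs and overlaps come from GENCODE M21 (GRCm38), matched by symbol. Ratios of related genes were compared by exact permutation. Other pseudocounts, filters, scalings, a fit with no trend, a replicate block and leaving out each library were tried.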

Additional observations from a re-analysis of the deposited data

How the results depend on the processing

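The count of 0 members past the threshold held in all 14 other settings, with lowest adjusted p values from 0.325 to 0.634. The median log2 change of the members lay between 0.0013 and 0.066. The number of all tested genes past the threshold, 58, was 74 with a filter at a mean of at least 5 TPM, 37 with no filter, 38 with the replicate block and 28 with no trend, and between 27 and 59 in the fits that omit a library. Of 546 member values in other settings, 29 from 16 members had the other sign, none of them past the threshold. With median-of-ratios scaling and with quantile normalization the log2 change was 0.017 and 0.011 for Hnrnpu and 0.016 and 0.019 for Tial1; the cause was not tested. When a library was left out, the log2 changes of these 16 ranged as follows: Celf5 −0.14 to 0.00025, Mbnl2 −0.020 to 0.13, Rbfox1 −0.035 to 0.054, Rbfox2 −0.086 to 0.016, Elavl1 −0.15 to 0.0013, Elavl3 −0.15 to 0.0065, Elavl4 −0.059 to 0.15, Hnrnpc −0.10 to 0.021, Hnrnpl −0.023 to 0.081, Hnrnpu −0.073 to 0.021, Srsf1 −0.029 to 0.16, Srsf3 −0.040 to 0.13, Srsf4 −0.0020 to 0.13, Srsf6 −0.021 to 0.11, Tia1 −0.0097 to 0.11 and Tial1 −0.040 to 0.024. No ratio of related genes passed at the other pseudocount or with a library left out, where the exact test used cannot reach the threshold. With a library left out, the difference of Rbfox1/Rbfox2 ranged from −0.018 to 0.10, that of Elavl3/Elavl1 from −0.11 to 0.079 and that of Elavl4/Elavl1 from −0.060 to 0.23, with the other sign at one end. Same-numbered libraries deviated together only weakly (r = 0.013 to 0.035 across genes), although each library correlated best with its own number. Whether the numbers pair the libraries is not known. With the replicate block, 0 members passed (lowest adjusted p = 0.460). Depth cannot be read from TPM and its limits are unknown.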

Other observations

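Among the 39 tested members, the highest value lay in control replicate 3 for 11 and in control replicate 2 for 2, and the lowest in knockout replicate 2 for 9. Over all tested genes, control replicates 1, 2 and 3 held 19.8, 12.1 and 22.0% of the highest values. Control replicate 1 held 16.7% and knockout replicate 2 held 23.7% of the lowest values. Control replicate 1 had the highest value of 7 members (Celf1, Celf6, Elavl1, Hnrnpa1, Hnrnpa2b1, Hnrnpc and Srsf3) and the lowest of 7 (Celf5, Mbnl2, Nova1, Elavl4, Hnrnpk, Srsf6 and Srsf7). Its summed neuronal markers were the lowest (6282 TPM, against 6665 to 7180.1 TPM in the other 5 libraries). Tubb3 and Stmn2 (2405 and 2803 mean TPM) made up most of that sum. Tubb3, Stmn2 and Slc17a7 were lowest in control replicate 1, while Map2, Snap25, Syt1, Gad1 and Gad2 were lowest in other libraries. The part of cell composition in these values was not tested. Besides Hnrnpu and Srsf2, 4 members share exonic bases with a tested gene on the opposite strand: Ptbp1 with E130317F20Rik (6.22% of its exonic length), Hnrnpk with Rmi1 (5.10%), Elavl1 with Ccl25 (1.97%) and Celf3 with Riiad1 (1.35%).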
